A study of Mus musculus with 6 samples.

Results

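The myeloid and antigen-presenting cells of uninjured mouse tendon were 434 of 7516 filtered cells in the *Gli1*+ uninjured library. Each carried a pan-leukocyte transcript, no *Cd3d*, *Cd3e* or *Cd3g* transcript and a set number of transcripts of 3 myeloid or antigen-presentation genes. The whole series held 63329 filtered cells. A cell was counted by its unique molecular identifiers (UMIs, one per captured RNA molecule). It entered with at least 1000 UMIs, at least 200 genes, at most 5% mitochondrial UMIs, at least 1 UMI of *Ptprc*, which encodes the leukocyte surface protein CD45, 0 UMIs of *Cd3d*, *Cd3e* and *Cd3g*, and a sum of at least 5 UMIs of *H2-Aa*, *Lyz2* and *Csf1r*. The 349 members with at least 2 UMIs of *Csf1r* and *C1qa* together are called macrophage-like here, and the other 85 are called *Csf1r*/*C1qa*-low.

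The series compared tendon cells before and after Achilles tenotomy, a surgical cut of the tendon, in mice carrying *Gli1*-CreERT2 and the Ai9 red fluorescent reporter. Tamoxifen switches the reporter on in cells that express *Gli1*, a Hedgehog pathway transcription factor of tendon sheath progenitors, and their progeny keep it. Of 24 mice, 8 gave tissue without injury, 8 at 7 days post injury (dpi) and 8 at 21 dpi, and at each stage cells were sorted by flow cytometry into a reporter-positive (*Gli1*+) and a reporter-negative (*Gli1*-) library. Each library pooled mice, no table assigns cells to mice, and the gene list held 0 reporter or Cre features. Every condition is thus 1 sample, and no test between conditions was made. The labels call all of these Achilles tendon cells and give no strain or age.

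Tissue macrophages take up dying cells, lipid and iron, produce the complement component C1q and release chemokines that attract other leukocytes. Antigen-presenting cells display peptides on major histocompatibility complex (MHC) class II molecules to CD4 T cells, and macrophages, dendritic cells and B cells all do this to different degrees. In many connective tissues, perivascular macrophages carry LYVE1, a hyaluronan receptor, and other macrophages carry much class II. Neutrophils are short-lived granulocytes that store S100A8, S100A9 and antimicrobial proteins in their cytoplasm and granules.

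The sequences just upstream of genes that separate these cell types are shown because macrophages and neutrophils both depend on PU.1, the myeloid master regulator, and class II genes share a promoter element known as the Y box. Each is the 250 bases before the annotated start in RefSeq (mouse GRCm38.p6), 5′ to 3′ on the gene's strand. Capitals mark every match to GAGGAA or its reverse complement TTCCTC, the core of the PU.1 motif.
C1qb (chr4:136886201-136886450, minus strand): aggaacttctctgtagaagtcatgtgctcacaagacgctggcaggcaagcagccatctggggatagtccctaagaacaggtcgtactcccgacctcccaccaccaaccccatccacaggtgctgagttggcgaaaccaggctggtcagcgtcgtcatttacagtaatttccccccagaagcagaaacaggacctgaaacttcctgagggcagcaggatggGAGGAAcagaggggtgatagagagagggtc
Pf4 (chr5:90772185-90772434, plus strand): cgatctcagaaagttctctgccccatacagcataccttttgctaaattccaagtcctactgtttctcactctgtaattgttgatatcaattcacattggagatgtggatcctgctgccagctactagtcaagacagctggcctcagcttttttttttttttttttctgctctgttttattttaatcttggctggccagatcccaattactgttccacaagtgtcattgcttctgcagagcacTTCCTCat
Mrc1 (chr2:14229164-14229413, plus strand): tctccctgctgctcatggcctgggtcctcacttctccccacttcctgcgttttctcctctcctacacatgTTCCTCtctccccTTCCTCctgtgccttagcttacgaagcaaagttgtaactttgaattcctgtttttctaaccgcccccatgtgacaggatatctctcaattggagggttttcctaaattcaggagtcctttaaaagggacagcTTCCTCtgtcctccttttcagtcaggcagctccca
S100a8 (chr3:90668821-90669070, plus strand): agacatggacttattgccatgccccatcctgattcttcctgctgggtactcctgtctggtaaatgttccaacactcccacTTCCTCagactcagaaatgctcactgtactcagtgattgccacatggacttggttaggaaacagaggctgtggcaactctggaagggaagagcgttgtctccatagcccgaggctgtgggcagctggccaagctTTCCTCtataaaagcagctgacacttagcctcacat
The match nearest the start lay 30 bases before it in *C1qb*, 8 in *Pf4*, 35 in *Mrc1* and 36 in *S100a8*. The same letters occurred in 23.3% of 32851 RefSeq promoters of this length, in 7 of 11 matched macrophage genes and in 5 of 7 matched neutrophil genes. Among the genes named below for the largest ratios between macrophage-like and *Csf1r*/*C1qa*-low cells, they occurred in 3 of 9 matched genes higher in the first and in 7 of 11 higher in the second.

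For 2 class II genes, capitals mark GATTGG or its reverse complement CCAATC, the Y box letters.
H2-Eb1 (chr17:34305617-34305866, plus strand): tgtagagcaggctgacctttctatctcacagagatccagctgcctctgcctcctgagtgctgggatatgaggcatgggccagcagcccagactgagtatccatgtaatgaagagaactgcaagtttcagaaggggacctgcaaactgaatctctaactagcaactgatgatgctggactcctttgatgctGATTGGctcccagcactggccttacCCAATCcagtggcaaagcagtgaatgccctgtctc
H2-Aa (chr17:34287824-34288073, minus strand): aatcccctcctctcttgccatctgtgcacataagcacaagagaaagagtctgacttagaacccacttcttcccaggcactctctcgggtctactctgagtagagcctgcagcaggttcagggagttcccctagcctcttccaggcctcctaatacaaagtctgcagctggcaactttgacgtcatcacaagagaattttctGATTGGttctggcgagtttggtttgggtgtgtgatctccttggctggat
The matches lay 60 and 35 bases before the start in *H2-Eb1* and 49 bases before it in *H2-Aa*. The letters occurred in 14.6% of all promoters, in 8 of 12 matched class II genes and in 2 of 11 matched macrophage genes. A match in these windows says only that the letters are there.

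Cells that passed the rule were counted in each of the 6 libraries. They were 5.77% of filtered cells in the *Gli1*+ uninjured library (exact binomial 95% interval 5.26 to 6.33%, counting error only). In the *Gli1*- uninjured library the rule found 11 of 12113 cells, or 0.0908% (0.0453 to 0.162%), of which 1 was macrophage-like. The libraries from 7 dpi gave 0 of 10064 *Gli1*+ cells, which allows a share of up to 0.0298% at a floor of 3 counts (exact binomial upper limit 0.0366%), and 2 of 10899 *Gli1*- cells. The libraries from 21 dpi gave 0 of 10695 *Gli1*+ cells, which allows a share of up to 0.0281% at the same floor (exact binomial upper limit 0.0345%), and 6 of 12042 *Gli1*- cells.

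The *Gli1*+ uninjured library stood apart in all leukocytes, and not in myeloid cells alone. A *Ptprc* UMI was present in 57.2% of its cells, and in 37, 10, 9, 3 and 29 cells of the other libraries. The members made up a small part of these cells, next to 3212 T cells, defined by at least 2 *Cd3* UMIs. *Gli1* itself had 1 UMI in all 349 macrophage-like cells together, 0.30 CPM (the counts of a gene in a set of cells per 1000000 UMIs summed over that set), against 13.4 CPM in the 2327 mesenchymal cells of the same library, which had no *Ptprc* UMI and at least 20 UMIs of 3 matrix genes. What set this library apart was not tested, and condition, sort and library cannot be told apart for these cells. Within the library, 9 member barcodes also occurred in another library.

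**Figure D1:**
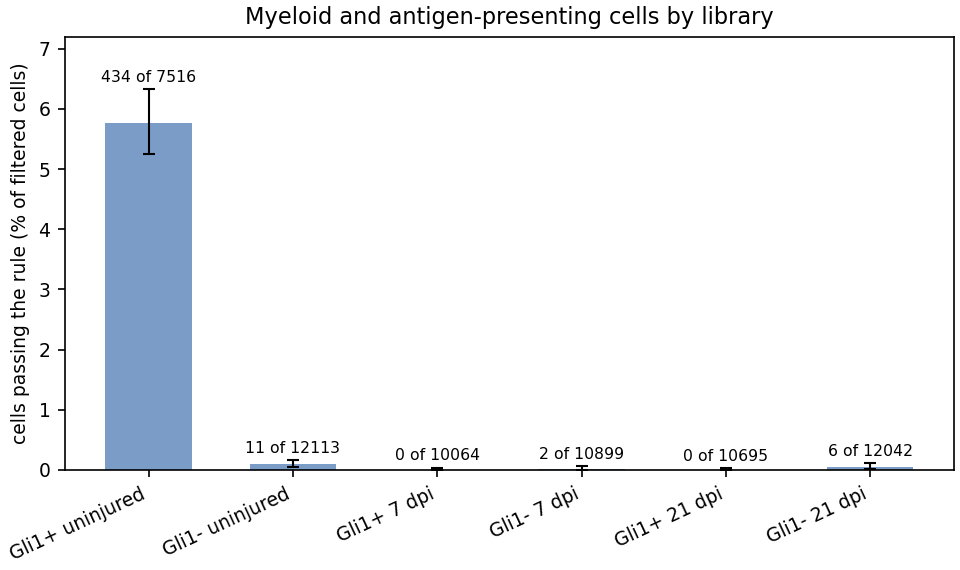
Cells that passed the rule as a percentage of filtered cells in each of the 6 libraries. Bars are shares, error bars are exact binomial 95% intervals and the counts stand above them; the *Gli1*+ uninjured library is at 5.77% and no other library is above 0.0908%.

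The split by *Csf1r* and *C1qa*, the receptor for macrophage colony-stimulating factor and a chain of C1q, left few cells near its limit. The sum of the 2 genes was 0 in 71 members, 1 in 14, 2 in 1 and 3 in 1, and at least 10 in 330. The median sum was 33 UMIs in macrophage-like cells and 0 in the others. As the genes that chose the members, *Lyz2* had a median of 49 UMIs per macrophage-like cell against 7 per *Csf1r*/*C1qa*-low cell, and *H2-Aa* of 1 against 5. The limit of 5 on the sum of *H2-Aa*, *Lyz2* and *Csf1r* was less sparse, since 10 cells lay at 3, 12 at 4, 7 at 5 and 5 at 6.

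The macrophage-like cells had the C1q and scavenger receptor transcripts that mark resident macrophages. *C1qb*, which the rule did not use, was at 2812 CPM (exact Poisson 95% interval 2756 to 2870, counting error only), with 0 to 130 UMIs per cell and a median of 23. At 2000 UMIs drawn per cell it was detected in 97.4% of these cells and in 2.53% of T cells, and without drawing in 99.1% and 6.44% (median depths 8457 and 8142 UMIs). *C1qc*, the third C1q chain, was at 2652 CPM with a median of 21 UMIs per cell. Nearly every cell therefore carried both chains beside the *C1qa* by which it was chosen. As chains of the same complex, *C1qb* and *C1qc* are not independent of that choice.

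*Pf4*, a chemokine also called CXCL4, was at 4009 CPM (3941 to 4077) in macrophage-like cells, with 0 to 222 UMIs per cell and a median of 32. *Mrc1*, the mannose receptor CD206, was at 2973 CPM, and *F13a1*, a transglutaminase chain, at 2724 CPM. In 2000 drawn UMIs these 3 genes were detected in 95.1%, 92.2% and 90.5% of the cells. Each was thus found in nearly all macrophage-like cells.

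Other macrophage genes were present in only some of the cells. *Lyve1* was at 1261 CPM (1223 to 1299), with 0 to 174 UMIs per cell, and was detected at the drawn depth in 60.7% of macrophage-like cells against 0.72% of T cells. *Cd163*, the haemoglobin scavenger receptor, was at 632 CPM and detected in 56.7%, and *Folr2*, a folate receptor, at 573 CPM and in 61.3%. *Timd4*, a receptor for dying cells typical of long-lived resident macrophages, was at 64.4 CPM and detected in 12.7% at the drawn depth and in 33.8% without drawing. *Ly6c2*, a gene of classical monocytes, was at 1.20 CPM, against 106 CPM in T cells. Other genes of the 12-gene monocyte list were present, with *Fn1*, the fibronectin gene, at 290 CPM and *Cx3cr1*, the fractalkine receptor, at 61.7 CPM. In the macrophage-like cells of cluster 4 described below, some of which carried many mesenchymal transcripts, the monocyte list summed to 1550 CPM. Over all macrophage-like cells it summed to 595 CPM, against 1006 CPM in T cells and 1722 CPM in mesenchymal cells. Of its 10 measured genes, 2 were at least 1 log2 unit higher than in T cells, beside 19.9% of all genes, and 4 at least 1 lower, beside 22.4%.

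The same genes were also read in the other cells of the library. In T cells, *C1qb*, *Pf4*, *Lyve1* and *Cd163* stood at 1.38%, 1.06%, 0.975% and 1.49% of their macrophage-like level. Most of that came from 49 T cells with at least 2 UMIs of *Csf1r* and *C1qa*, of which 33 scored as doublets. They held 85.3%, 81.9%, 66.6% and 79.7% of the T cell UMIs of these 4 genes. Without them the 4 genes were at 5.90, 7.94, 4.23 and 1.97 CPM in T cells, and at 5.73, 8.56, 2.60 and 0.618 CPM in mesenchymal cells treated the same way.

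**Figure D2:**
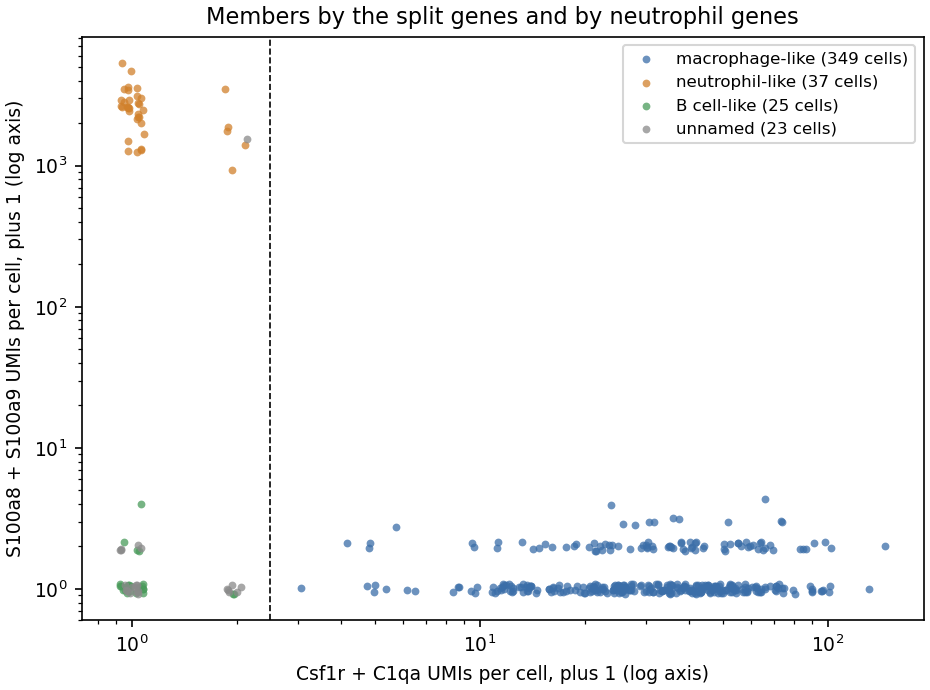
Each point is one of the 434 members, by its *Csf1r* plus *C1qa* UMIs (horizontal) and its *S100a8* plus *S100a9* UMIs (vertical), each plus 1 on a log axis with a little jitter. The dashed line is the split at 2 UMIs; the 37 neutrophil-like cells stand high on the left and the 349 macrophage-like cells lie to the right.

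The *Csf1r*/*C1qa*-low cells, which a working label had called dendritic-like, were for the most part neither macrophages nor dendritic cells by their transcripts. Clustering of the 434 members gave 6 clusters, 1 of which was neutrophil-like and held 37 of the 85 cells, and 1 of which was B cell-like and held 25. The remaining 23 stayed unnamed. Because the clusters were drawn from the expression of these same cells, the levels that follow describe them and no test was made.

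In the 37 neutrophil-like cells, *S100a8* and *S100a9*, the subunits of calprotectin, were the 2 transcripts with the most UMIs. *S100a8* was at 122056 CPM (120923 to 123196), with 535 to 2323 UMIs per cell and a median of 1163. *S100a9* was at 132653 CPM, with 361 to 2857 UMIs per cell and a median of 1312. The summed list of 8 neutrophil genes was 15.9 to 37.5% of each cell's UMIs, with a median of 29.4%, against a median of 0.010% in macrophage-like cells, so the sets did not come near each other in the plot of split genes and neutrophil genes.

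The granule genes of neutrophils were high in the same cells. The secondary granule genes *Ngp*, *Camp* (cathelicidin), *Lcn2* (lipocalin 2) and *Ltf* (lactoferrin) were at 21834, 12800, 8062 and 2148 CPM. *Mmp8* and *Mmp9*, the neutrophil collagenase and gelatinase, were at 1625 and 1499 CPM. Genes of mature circulating neutrophils were present as well, with *Retnlg* at 19845 CPM, the chemokine receptor *Cxcr2* at 286 CPM and the granulocyte colony-stimulating factor receptor *Csf3r* at 338 CPM. Among inflammatory transcripts, *Il1b* (interleukin 1 beta) was at 572 CPM, against 14.1 CPM in macrophage-like cells. Doublet scoring marked 3 of the 37 cells.

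The 25 B cell-like cells carried B cell receptor and class II transcripts. *Cd79a*, a signalling chain of the B cell receptor, was at 1633 CPM, with 3 to 20 UMIs per cell and a median of 8, so it was present in every one of them. The immunoglobulin genes *Igkc*, *Ighm* and *Ighd* were at 2675, 1183 and 578 CPM, and *Pax5*, the B cell identity factor, at 706 CPM. Their class II gene *H2-Ab1* was at 2204 CPM and the class II invariant chain gene *Cd74* at 7936 CPM, beside 821 and 3185 CPM in macrophage-like cells. All members of the *Csf1r*/*C1qa*-low set had at most 1 UMI of *Csf1r* and *C1qa* together, so they entered the rule by *H2-Aa*, itself a class II gene, or by *Lyz2*, and the class II level of the B cell-like cells is not independent of the rule. *Ciita*, the class II transactivator, was at 202 CPM in them and at 18.0 CPM in macrophage-like cells.

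The 23 unnamed cells held several dendritic cell transcripts, but also transcripts of other cells. A UMI of *Flt3*, *Zbtb46* or *Ccr7*, genes of dendritic cell development and migration, was found in 18 of them, against 29 of 349 macrophage-like cells, 1087 of 3212 T cells and 24 of 25 B cell-like cells. T and B cells themselves use *Ccr7*, which was detected in 24 of the B cell-like and 9 of the unnamed cells. *Batf3* and *Irf8*, factors of type 1 dendritic cells, were detected in 16 and 10 of the unnamed cells in 0 and 13 of the B cell-like cells and in 86 and 196 of the 349 macrophage-like cells. *Xcr1* and *Clec9a*, defining surface markers of type 1 dendritic cells, were detected in 3 unnamed cells each and in 0 macrophage-like cells. *Fscn1*, *Ccl17* and *Ccl22*, genes of mature dendritic cells, were detected in 9, 5 and 5 of the 23 cells. *Fscn1* was also detected in 503 of 2327 mesenchymal cells and *Zbtb46* in 264 of them. At least 5 of 20 genes of type 1 or mature dendritic cells were detected in 16 of the 23 cells, in 4 of the 25 B cell-like cells and in 44 of the 349 macrophage-like cells.

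These counts of cells with dendritic genes used all UMIs, without drawing. The same 23 cells had a median of 20721 UMIs, above the 8457 of macrophage-like and the 5177 of B cell-like cells, and 5 of them scored as doublets. *Col1a1*, the type I collagen gene of tendon cells, was detected in 9 of them at 1855 CPM, and the T cell receptor gene *Trbc2* in 9. Their median share of mesenchymal list UMIs was 0.027%, and the highest 4.67%. One of the cells held 1553 UMIs of *S100a8* and *S100a9*. The part of depth and mixed cells in the dendritic transcripts was not tested, and the label dendritic-like is not used for the set. The clustering placed 22 of them in cluster 4, described below, which was led by matrix genes. At resolution 1.0 a cluster of 28 macrophage-like and 18 *Csf1r*/*C1qa*-low cells was instead led by *Ccl17*, *Apol7c* and *Zfp366*. With likely doublets removed, a cluster of 59 macrophage-like and 17 *Csf1r*/*C1qa*-low cells was led by *Ndnf*, *H1f5* and *Top2a*. The mature dendritic cell list was the one raised most over the other members in both, with 2 of its genes among the 10 leading genes of the first cluster and 0 among those of the second. With 10 components, a cluster of 24 macrophage-like and 19 *Csf1r*/*C1qa*-low cells was also led by *Ccl17*, *Apol7c* and *Zfp366*. There the keratinocyte list was raised most.

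**Figure D3:**
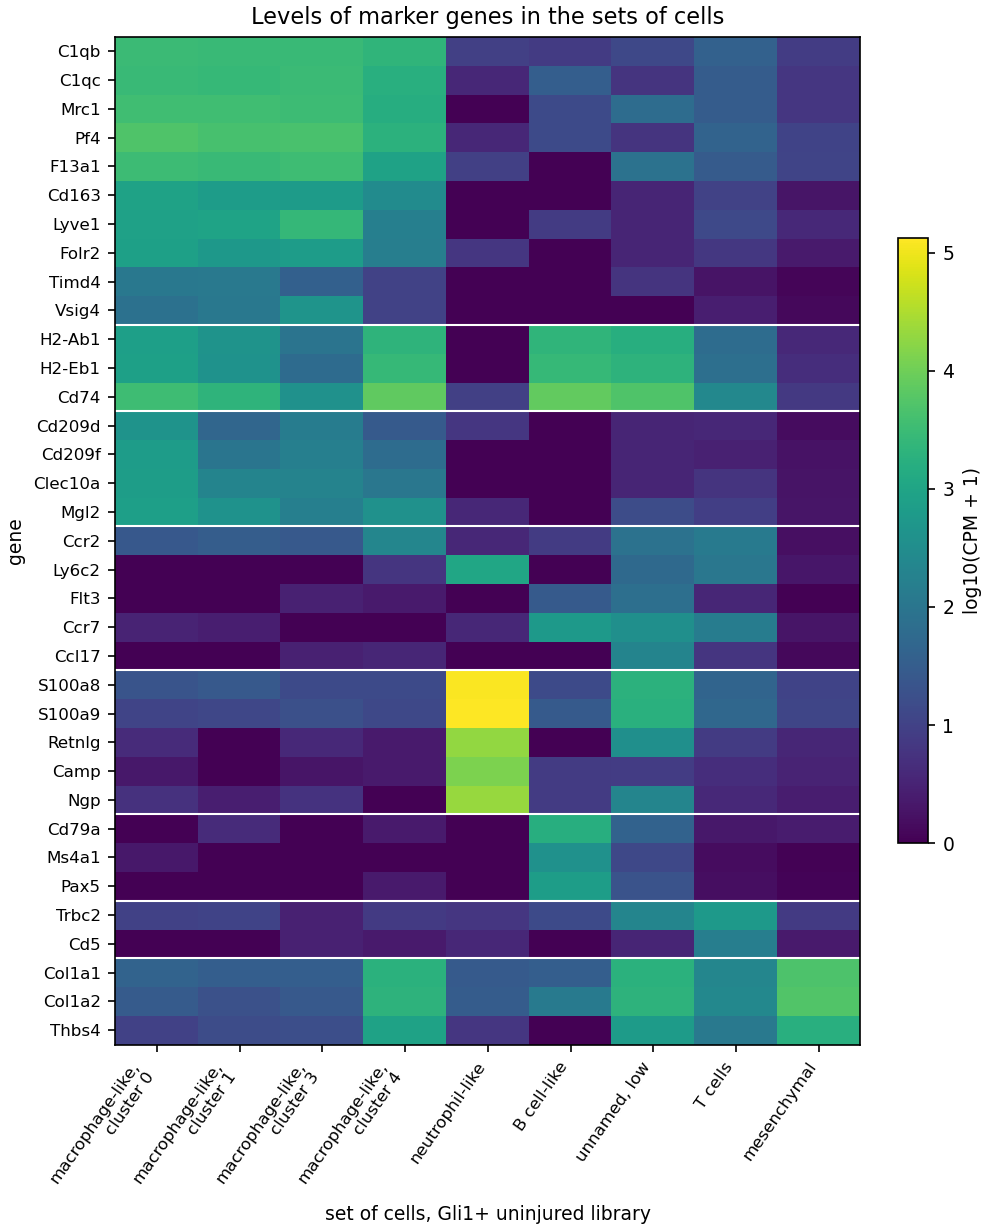
Levels of marker genes (rows) in 4 macrophage-like clusters, the 3 kinds of *Csf1r*/*C1qa*-low cells, T cells and mesenchymal cells (columns) of the *Gli1*+ uninjured library, as log10(CPM + 1) of summed UMIs. The *C1qb* to *F13a1* rows are bright in the macrophage-like columns, the *S100a8* to *Ngp* rows in the neutrophil-like column and the *Cd79a* to *Pax5* rows in the B cell-like column.

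The macrophage-like cells were then set against all 85 *Csf1r*/*C1qa*-low cells. Of 10929 genes with enough UMIs, 2539 (23.2%) were at least 1 log2 unit higher in the macrophage-like cells and 1592 (14.6%) at least 1 log2 unit lower. The ratios describe the split, which chose the cells on transcripts of these same cells. Without the 37 neutrophil-like cells, a setting added after the data had been seen, 1946 genes were higher and 1875 lower. The 12 genes taken by rule as the highest ratios were *Pf4*, *Cd163*, *Lyve1*, *C3ar1*, *C1qc*, *C1qb*, *Clec10a*, *P2rx7*, *Cd209f*, *Folr2*, *Ccl24* and *Ms4a7*.

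*Pf4* had a log2 ratio of 9.53 (95% interval 8.31 to 11.15), from 13387 against 5 UMIs. The C1q genes *C1qc* and *C1qb* had log2 ratios of 8.26 (7.28 to 9.47) and 8.17 (7.25 to 9.30). *Cd163* and *Lyve1* had log2 ratios of 9.19 (6.71 to 14.49) and 9.18 (7.33 to 12.23), from 1 and 2 UMIs in the *Csf1r*/*C1qa*-low cells, so the order of these genes is not settled. On the other side, the 12 lowest ratios were all of genes high in the neutrophil-like cells, led by *Camp* at -12.46, *S100a9* at -11.98, *Retnlg* at -11.89 and *Ngp* at -11.50. All 14 measured macrophage list genes outside the rule were at least 1 log2 unit higher (median 6.86), and all 8 neutrophil genes at least 1 lower (median -9.37), beside a median of 0.18 over all genes.

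Class II genes went both ways across this split. Of 15 measured class II presentation genes, 3 were at least 1 log2 unit higher in macrophage-like cells beside 23.2% of all genes, 5 were at least 1 lower beside 14.6%, and 7 lay between, with a median of -0.41. *H2-Eb1*, a class II beta chain, had a log2 ratio of -0.55, and *H2-Oa*, which restrains peptide loading in B cells, of -5.61. The *Csf1r*/*C1qa*-low set pooled unlike cells here, since *H2-Ab1* was detected in 0 of 37 neutrophil-like, 24 of 25 B cell-like and 21 of 23 unnamed cells.

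Within the macrophage-like cells, class II transcripts were in some cells and not in others, and were set beside *Lyve1*. *H2-Ab1* was at 821 CPM (791 to 852), with 0 to 105 UMIs per cell and a median of 1, and was detected in 42.2% of cells at the drawn depth and in 55.9% without drawing, against 2.50% and 4.83% of T cells. *H2-Eb1* was at 930 CPM and *Cd74* at 3185 CPM. The summed UMIs of *H2-Ab1* and *H2-Eb1* were 0 in 136 of 349 cells, those of *Lyve1* were 0 in 64, and both were 0 in 9 cells.

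At 2000 drawn UMIs per cell, which 346 macrophage-like cells reached, 62 cells had both *Lyve1* and *H2-Ab1*, 148 had only *Lyve1*, 84 had only *H2-Ab1* and 52 had neither. Among the 175 cells at or above the median depth, 27 had both, 90 only *Lyve1*, 39 only *H2-Ab1* and 19 neither. Among the 171 shallower cells the counts were 35, 58, 45 and 33. The 2 transcripts therefore overlapped in part of the cells in both depth classes.

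Other pairs of genes were counted the same way. *Mrc1* and *Lyve1* were both detected in 198 cells, with 12 cells positive for *Lyve1* alone. *Folr2* and *H2-Ab1* were both detected in 69 cells, 143 cells had only *Folr2* and 77 only *H2-Ab1*. *Ccr2*, the receptor that brings monocytes into tissue, was detected in 25 of the 346 cells, 5 of them with *Lyve1*. T cells of the library also had *Ccr2*, in 17.1% of cells at the drawn depth against 7.23% of macrophage-like cells. Among the macrophage-like cells of cluster 4, described below, the share was 25.8%, against 2.40%, 5.56% and 2.33% in clusters 0, 1 and 3.

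**Figure D4:**
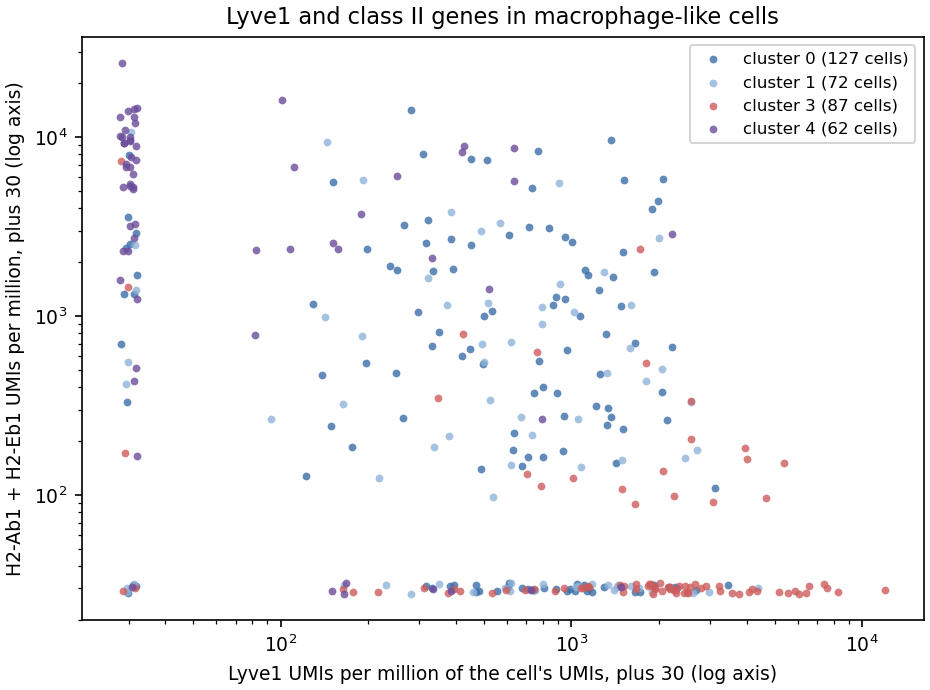
Each point is a macrophage-like cell of cluster 0, 1, 3 or 4, by *Lyve1* UMIs (horizontal) and *H2-Ab1* plus *H2-Eb1* UMIs (vertical) per 1000000 of the cell's UMIs, each plus 30 on a log axis. Cluster 3 lies to the lower right and cluster 4 to the upper left, with clusters 0 and 1 between them and over both.

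The macrophage-like cells fell into 4 clusters of more than 1 cell, described by number and leading genes. Cluster 0 (127 cells) was led by the C-type lectin genes *Cd209b*, *Cd209a* and *Cd209f*. The type 2 dendritic cell list, which holds *Cd209a* and *Cd209d*, was the one raised most there, in 5 of 11 genes. It summed to 4420 CPM against 2802, 2326 and 2614 CPM in the macrophage-like cells of clusters 1, 3 and 4. Of its other genes, *Flt3*, *Itgax* and *Zbtb46* were detected in only 3, 6 and 23 of all 349 macrophage-like cells. Cluster 0 held *Cd209f* at 668 CPM, against 95.3, 163 and 63.9 CPM in the macrophage-like cells of clusters 1, 3 and 4. *Ccl8*, a chemokine for monocytes and T cells, was at 936 CPM against 255, 303 and 99.2 CPM. No cell of cluster 0 scored as a doublet.

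Cluster 3 (87 macrophage-like cells) was led by the water channel gene *Aqp1*, at 754 CPM in the cluster, by *Cav1*, a caveolar protein gene of endothelial cells, at 65.4 CPM, and by *Vsig4*, a complement receptor, at 450 CPM. Of the marker lists, the endothelial one was raised most over the other members, in 5 of 6 genes. Its summed level in the macrophage-like cells of cluster 3 was 103 CPM, against 16.8, 19.7 and 27.4 CPM in clusters 0, 1 and 4, with a median of 0% and a highest value of 0.229% of a cell's UMIs. At resolution 1.0 a cluster of 50 cells with *Aqp1* was led by the endothelial genes *Ptprb*, *Flt1* and *Cldn5*. With likely doublets removed the *Aqp1* cluster had 112 cells, was led by *Mgp*, *Aqp1* and *Thbs4*, and had the pericyte or smooth muscle list raised most, so its make-up changed with the setting. The part of endothelial RNA in cluster 3 was not tested. Its macrophage-like cells had *Lyve1* at 2593 CPM, detected in 81.4% of cells at the drawn depth, and *H2-Ab1* at 92.8 CPM, detected in 8.14%. A single cell held 55.1% of those *H2-Ab1* UMIs, and class II UMIs were 0 in 65 of the 87 cells. Of the 4 clusters, cluster 3 thus had the highest *Lyve1* and the lowest *H2-Ab1* level.

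Cluster 4 (62 macrophage-like cells) stood at the other end, with *Lyve1* at 164 CPM and *H2-Ab1* at 2162 CPM. At the drawn depth they were detected in 21.0% and 83.9% of these cells. *H2-Eb1* was at 2679 CPM, *Cd74* at 7526 CPM and *Ccr2* at 223 CPM. Its leading genes, however, were matrix and tendon genes such as *Tnc*, *Col11a1*, *Thbs4*, *Col1a2* and *Mkx*, and 22.6% of its macrophage-like cells scored as doublets. These genes were detected in 10.7%, 16.7%, 27.4%, 42.9% and 13.1% of the cluster's cells, so they describe a part of it. At resolution 1.0, 17 cells, 13 of them scored as doublets, formed a cluster led by *Kera*, *Ibsp* and *Tnc*. It held 122 UMIs of *Tnc* against 3 in the other members, and 2420 of *Col1a2* against 119. In the macrophage-like cells of cluster 4, *Col1a1* was at 1859 CPM, with 45.3% of its UMIs in 1 cell. Their median share of mesenchymal list UMIs was 0.042%, beside 0.033%, 0.033% and 0.051% in clusters 0, 1 and 3. In the 48 cells that did not score as doublets *H2-Ab1* was at 2671 CPM, *Lyve1* at 162 CPM, *Ccr2* at 308 CPM and *Col1a1* at 963 CPM, so the class II level was as high without them. The summed macrophage list was at 13415 CPM in cluster 4, against 25545 to 27775 CPM in the other 3.

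Cluster 1 (72 cells) lay between, with *Lyve1* at 926 CPM and *H2-Ab1* at 434 CPM. Its leading genes *Krtdap* and *Krt14* are keratinocyte genes, and 1 cell held most of their UMIs, so they describe that cell and not the cluster. The next were the muscle genes *Mb* and *Tcap*, each detected in 23.6% of its cells. With likely doublets removed, a cluster of 100 macrophage-like cells was led by *Mb* and *Tnnt1*. The part of muscle RNA in these cells was not tested. *Apoe*, the lipid carrier, was at 9168 CPM in cluster 1 and 9271 CPM in cluster 0, against 3219 CPM in cluster 3 and 7615 CPM in cluster 4. *C1qb* varied less, from 2227 CPM in cluster 4 to 3095 CPM in cluster 0.

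The functional genes of the members were next set against the 3212 T cells of the same library, the other large leukocyte population. The sets, from a pool of both sexes, differed in sex-linked transcripts. Y-linked transcripts without *Xist* were seen in 21.2% of macrophage-like cells and 4.76% of T cells, and *Xist* without Y-linked transcripts in 63.3% and 82.6%. The part of this difference in the ratios was not tested. Of 16131 genes, 3214 (19.9%) were at least 1 log2 unit higher in the members and 2989 (18.5%) at least 1 lower. Among genes with at least 50 UMIs and detected in at least 10% of members, the 4 highest ratios were of neutrophil genes, *Ngp* at 9.32, *Retnlg* at 7.97, *S100a8* at 7.92 and *S100a9* at 7.82, although neutrophil-like cells were only 37 of 434 members. All 15 class II presentation genes measured were at least 1 log2 unit higher in the members, with a median of 3.69 beside -0.06 over all genes. Members were admitted partly by *H2-Aa*, itself a class II gene, so this count is not independent of the rule.

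Since the small neutrophil-like and B cell-like sets weighed on these sums, the macrophage-like cells alone were also set against the T cells, a comparison added after the data had been seen. Of 15979 genes, 3183 (19.9%) were at least 1 log2 unit higher in macrophage-like cells and 3572 (22.4%) at least 1 lower. The highest ratios included *Cd209g* at 7.21, *Tfec* at 7.12, *Cd33* at 6.92, *Vsig4* at 6.85, *Trem2* at 6.71 and *Mrc1* at 6.63. The T cells here included the 49 with at least 2 UMIs of *Csf1r* and *C1qa*. These cells held 85.9% of the T cell UMIs of *Mrc1*, which was at 4.37 CPM in T cells without them, so its ratio depends on them. Their part in the other ratios, and so in the order of the genes, was not tested. All later ratios in this text are from this comparison, where the median over all genes was -0.08.

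Receptors for uptake were mostly higher in macrophage-like cells, where 19.9% of all genes were at least 1 log2 unit higher and 22.4% at least 1 lower. All 11 Fc receptor and Fc signalling genes were at least 1 log2 unit higher in macrophage-like cells (median 5.40), with *Fcer1g*, the shared signalling chain, at 1322 against 38.3 CPM. Of 17 scavenger and efferocytosis genes, 14 were higher and 1 was lower (median 4.52), the exception being *Stab2* at -3.06, while its relative *Stab1*, which clears oxidised lipoprotein, was at 315 against 6.14 CPM. Of 16 pattern receptor genes, 13 were higher and 1 lower (median 3.99), among them *Cd14*, the endotoxin co-receptor, at 328 against 8.60 CPM.

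Degradation and cargo handling followed the receptors, beside the same shares of all genes. Of 20 lysosome genes, 19 were at least 1 log2 unit higher and none at least 1 lower (median 3.34). *Ctsb*, a cathepsin protease, was at 1828 CPM against 85.4 CPM and *Lgmn*, a protease that trims antigen, at 1010 against 17.8 CPM. Of 15 iron and lipid genes, 12 were higher and 1 lower (median 2.54). *Hmox1*, which breaks down haem, had a log2 ratio of 5.95, *Apoe* of 5.41 (5.37 to 5.45), and *Fth1*, ferritin heavy chain, was detected in every macrophage-like cell.

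Complement and antigen presentation differed in extent. Of 15 complement genes, 10 were at least 1 log2 unit higher, beside 19.9% of all genes, and 2 at least 1 lower, beside 22.4%. Their median was 4.96, with the central component *C3* at a log2 ratio of -1.14. Macrophage-like cells were chosen partly by *C1qa*, a complement gene, so the complement count is not independent of the rule. Of 15 class II presentation genes, 12 were higher and 1 lower (median 3.29), with *H2-Ab1* at a log2 ratio of 3.68 (3.59 to 3.76). Since the rule used *H2-Aa*, these class II values are not independent of it either. Of 12 class I presentation genes, 0 were higher and 2 lower, beside 19.9% and 22.4% of all genes, and 10 lay between (median -0.45). The class I machinery, which nearly all cells use, thus lay mostly within 1 log2 unit of its level in T cells. *Cd86*, a costimulatory ligand for CD28, was at 923 against 31.8 CPM.

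Most chemokines, which guide other leukocytes, were higher in macrophage-like cells. Of 20 measured, 13 were at least 1 log2 unit higher, beside 19.9% of all genes. Another 5 were at least 1 lower, near the 22.4% of all genes (list median 4.08). The monocyte attractants *Ccl2* and *Ccl7* were at 504 and 417 CPM against 16.5 and 10.5 CPM in T cells and 106 and 64.9 CPM in mesenchymal cells. *Ccl24*, an eosinophil attractant, was at 343 CPM against 5.37 CPM, and *Ccl6* at 936 against 19.2 CPM. *Ccl5* went the other way, at 16.2 against 688 CPM in T cells, a log2 ratio of -5.41 (-5.82 to -5.03).

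*Cxcl2*, a ligand of CXCR2, was at 999.9 CPM in macrophage-like cells, with 0 to 171 UMIs per cell, a median of 0 and detection in 35.6% of cells at the drawn depth. By cluster it was at 192 CPM in cluster 0, 1395 in cluster 1, 769 in cluster 3 and 1965 in cluster 4. *Tnf* was at 184 CPM and *Il10*, an anti-inflammatory cytokine, at 32.9 CPM, while *Nos2* and *Arg1*, the enzymes used to describe inflammatory and repair macrophages, had only 2 and 5 UMIs in all.

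Among growth factors, 7 of 19 measured were at least 1 log2 unit higher in macrophage-like cells, beside 19.9% of all genes. Another 3 were at least 1 lower, beside 22.4% (list median 0.46). *Igf1*, a growth factor for tendon cells, was at 238 CPM (222 to 256) against 15.9 CPM in T cells, a log2 ratio of 3.90 (3.74 to 4.07), and 291 CPM in mesenchymal cells. *Tgfb1* was at 292 CPM against 213 in T cells and 55.3 in mesenchymal cells, with a log2 ratio over T cells of 0.46 (0.36 to 0.56). *Bmp2*, a bone morphogenetic protein (BMP), was at 72.5 CPM against 15.1 in T cells and 156 in mesenchymal cells. *Osm*, a cytokine of the interleukin 6 family, was at 37.7 CPM against 3.94 CPM in T cells and 187 CPM in the neutrophil-like cells.

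**Figure D5:**
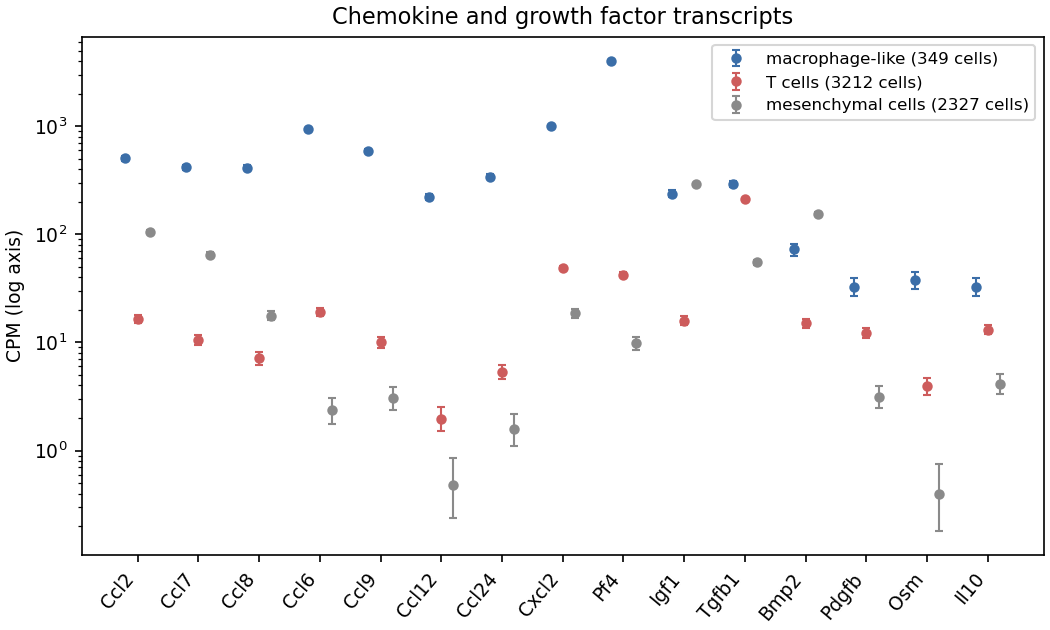
Levels of 15 chemokine, cytokine and growth factor genes in macrophage-like, T and mesenchymal cells of the *Gli1*+ uninjured library, in CPM of summed UMIs on a log axis. Points are levels and bars exact Poisson 95% intervals (counting error only); the chemokines from *Ccl2* to *Pf4* are highest in macrophage-like cells, while *Igf1* and *Bmp2* are highest in mesenchymal cells.

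Transcription factors ranged from myeloid to broadly used. Of 19 measured, 12 were at least 1 log2 unit higher in macrophage-like cells, beside 19.9% of all genes. Another 3 were at least 1 lower, beside 22.4% (list median 1.42). *Spi1*, which encodes PU.1, was at 310 CPM against 7.82 CPM in T cells, and was detected in 45.7% of macrophage-like cells at the drawn depth against 0.66% of T cells. *Maf*, which T cells also use, had a log2 ratio of 1.38.

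The series concerns the stimulatory G protein and protein kinase A (PKA) pathway in tendon progenitors, so its genes were read in the macrophage-like cells too. Of 18 measured, 3 were at least 1 log2 unit higher than in T cells, beside 19.9% of all genes, 5 at least 1 lower, beside 22.4%, and 10 lay between, with a median of -0.03. *Gnas*, the G alpha s subunit, was at 380 CPM against 606 in T cells and 1430 in mesenchymal cells, a log2 ratio over T cells of -0.67 (-0.75 to -0.59). *Ptger4*, a prostaglandin E2 receptor coupled to it, was at 173 against 67.2 CPM, and *Prkar2b*, a PKA regulatory subunit, at 48.8 against 3.94 CPM. Of 10 BMP receptor and target genes, 4 were higher and 1 lower, beside the same shares of all genes (median 0.64). The type II receptor *Bmpr2* was at 160 CPM against 69.5 in T cells and 331 in mesenchymal cells.

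Genes that react to tissue digestion were high as well. Of 15, 9 were at least 1 log2 unit higher than in T cells, beside 19.9% of all genes. None was at least 1 lower, beside 22.4% (list median 1.92). *Fos* and *Jun*, immediate early factors, were at 4264 and 4084 CPM in macrophage-like cells, against 1306 and 1078 CPM in T cells and 7317 and 6087 CPM in mesenchymal cells. *Hspa1a*, a heat shock chaperone, was at 1183, 1506 and 1227 CPM in clusters 0, 1 and 4 and at 221 CPM in cluster 3. The part of the digestion response in the chemokine and cytokine levels above was not tested.

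Of 14 interferon-stimulated genes, 6 were at least 1 log2 unit higher in macrophage-like cells than in T cells, beside 19.9% of all genes. Another 4 were at least 1 lower, beside 22.4% (list median 0.78). Of 11 cell cycle genes, 0 were higher and 8 lower, beside the same shares of all genes (median -2.01). *Mki67*, a marker of cycling cells, was at 19.8 CPM in macrophage-like cells against 79.5 CPM in T cells. Cycling transcripts were thus sparse among the macrophage-like cells.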

How the data were processed

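The authors deposited raw UMI counts per gene and cell from 10x Chromium 3′ libraries, 1 filtered matrix per library, in the unit of counts. The submitters' processing notes name Cell Ranger 3.1.0, STAR and mm10, and the matrix headers Cell Ranger 9.0.0, so the version and the genome build behind the counts were not settled and no coordinate is taken from them. The *Gli1*+ uninjured matrix held 8236 barcodes and 73153677 UMIs, of which 7516 cells passed the filter.

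UMIs were summed over each set of cells and given as CPM. Intervals at the 95% level are exact (Poisson, Clopper-Pearson, and binomial given the sum for ratios) and cover counting error only; with pooled mice and 1 library per condition no test was made. A level of 0 was read against a floor of 3 counts. Ratios used genes with at least 20 UMIs over both sets. Genes named first were the 12 or 15 with the largest ratio among genes with at least 50 UMIs and detected in at least 10% of cells of the higher set, leaving out rule, mitochondrial, ribosomal protein and unnamed predicted genes; list members are described by list. Shares and gene pair counts given at the drawn depth used 2000 UMIs drawn per cell, and other detection counts used all UMIs. T cells had at least 2 *Cd3* UMIs, and mesenchymal cells 0 *Ptprc* UMIs and at least 20 UMIs of *Col1a1*, *Col1a2* and *Dcn* together.

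Members were clustered with scanpy 1.11.5 (scale 10000, 2000 variable genes, 20 components, 15 neighbours, resolution 0.5). Cells were ranked by Scrublet score and the highest 452 of 7516 were marked, a number set in advance at 0.8% expected doublets per 1000 cells. To score as a doublet means only to be among these. Marked cells were kept (28 of the members). TMM (edgeR 4.0.16) and DESeq2 1.42.0 size factors were tried as other scalings. Some results are not reported here. The calculations were checked on simulated data. The members and gene lists were chosen with earlier results of these data known.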

Additional observations from a re-analysis of the deposited data

How the results depend on the processing

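The share of members was 5.44 to 6.32% in all alternatives other than drawing 2000 UMIs per cell, where it was 3.93%, and, as a setting added once the data had been seen, leaving out the neutrophil-like and B cell-like cells, where it was 4.95%. Genes at least 1 log2 unit lower in macrophage-like than in *Csf1r*/*C1qa*-low cells numbered 974 when at least 50 UMIs were asked of a gene. With at least 1 UMI they numbered 6429, and 9362 genes passed the limit in either direction. For members against T cells 12476 genes then passed it, 9392 of them counted as higher in members. A count of 0 was read as 3 counts in these ratios. A gene with few UMIs in 1 set and 0 in the other could thus be counted on the wrong side. The numbers at this minimum are therefore not counts of genes that differ. Clustering at resolution 1.0 gave 11 clusters. With macrophage-like cells only, also added after seeing the data, the log2 ratios over T cells of *Retnlg*, *S100a8* and *S100a9* reversed to -1.72, -1.31 and -1.95, since the *Csf1r*/*C1qa*-low cells are then left out. Of 360 ratios of named genes over all alternatives, 302 stayed within the interval of the reported ratio, 55 moved and 3 reversed. These cover macrophage-like against *Csf1r*/*C1qa*-low cells, and members against T cells. The comparison of macrophage-like cells with T cells was not itself rerun with other scalings, other gene minimums or doublets removed. TMM and DESeq2 size factors shifted all ratios of members over T cells by -0.14 and -0.11. No paired analysis was made. The *Gli1*+ and *Gli1*- libraries of a stage form a pair, but libraries other than the *Gli1*+ uninjured one held at most 11 members. With 1 library per group, no library could be left out in turn. Genes were not compared between the *Gli1*+ and *Gli1*- uninjured libraries because the latter held 11 members. Depth limits genes with few UMIs, since 1 UMI is 0.30 CPM in macrophage-like cells and 6.72 CPM in the B cell-like cells.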

Other observations

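A few genes better known from other lineages were present in the macrophage-like cells. *Siglech*, used as a marker of plasmacytoid dendritic cells and microglia, was at 47.0 CPM in macrophage-like cells against 0.42 CPM in T cells, and was detected in 10.7% of the former at the drawn depth. *Tnfrsf17*, the BCMA receptor of plasma cells, was at 17.4 CPM against 0.10 CPM, from 58 UMIs, with at most 3 UMIs in a cell. It was at 0 in the 25 B cell-like cells, where the floor of 3 counts is 20.2 CPM, so a difference from the macrophage-like level could not be seen at this depth. *Ighm* was at 181 CPM in macrophage-like cells, against 67.7 CPM in T cells and 1183 CPM in the B cell-like cells. *Ednrb*, an endothelin receptor, was at 332 CPM against 4.11 CPM in T cells.

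The rule left out 124 cells of the library only because of a *Cd3* UMI, and 47 of them (37.9%) scored as doublets. It left out 35 cells only because no *Ptprc* UMI was seen.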
